A study of Mus musculus with 8 samples.

Results

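The genes described here make fatty acids, glycerolipids and cholesterol, or control that synthesis through the sterol regulatory element binding proteins (SREBPs). They were a list of 37 symbols, grouped by role into 10 genes of fatty acid synthesis, elongation and desaturation, 5 of glycerolipid assembly, 5 of SREBP control and 17 of cholesterol synthesis and transport. Each gene was read from its probe set with the highest mean signal. Of the 18193 genes named on the array used for late-gestation lung (embryonic day E18.5), 36 were members, and all 36 were among the 12623 genes bright enough to be tested. The older array used at E11.5 named 8251 genes and 26 of the members, of which 25 were above its brightness limit. Acat2, a cytosolic thiolase, was not analysed here.

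Total RNA from mouse embryos of the FVB/N strain was hybridised to Affymetrix 1-colour arrays. At E18.5, lungs of bitransgenic embryos that overexpress MIA under a design labelled SP-C/MIA (3 arrays) were set against lungs of single transgenic control littermates (3 arrays). The purpose stated for this comparison was to measure how misplaced MIA expression affects lung gene expression. At E11.5, 1 lung array was set against 1 trachea array, to find genes that differ between these organs. SP-C is surfactant protein C, whose promoter is active in the distal lung epithelium. The labels do not say which transgene the controls carried, whether an inducer was given or whether each array held RNA of 1 embryo, so p-values measure the spread between these RNA samples, which may be technical.

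Fatty acid synthesis starts when ATP citrate lyase makes cytosolic acetyl-CoA, acetyl-CoA carboxylase turns it into malonyl-CoA, and fatty acid synthase builds palmitate. Cholesterol is built from the same acetyl-CoA through mevalonate, farnesyl diphosphate, squalene and lanosterol. SREBP1 mainly drives fatty acid genes and SREBP2 mainly drives cholesterol genes. Both are escorted by SCAP to the Golgi for cleavage and are held back by the INSIG proteins when sterols are plentiful. In late gestation the alveolar type II cell makes surfactant, a film rich in dipalmitoyl phosphatidylcholine with some cholesterol, and so draws on these routes.

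The transgene readout matched the labels. Mia signal was 959 ± 194 in control lungs and 38537 ± 6207 in bitransgenic lungs (SD, n = 3 each), and Mia rose by 5.21 on the log2 scale (limma adjusted p = 1.15e-06). Of the lung markers, Sftpc read 72239 to 93285 over the 6 arrays, Foxa2 3558 to 4776 and Nkx2-1 370 to 466. Nkx2-1 was thus no brighter than a typical probe set. Median signals of these arrays lay between 415 and 464. Correlation with the other E18.5 arrays was on average weakest for control 3 (0.956) and, among bitransgenic arrays, for bitransgenic 3 (0.965). The ratio of 3' to 5' signal of Actb, a sign of RNA quality, was 1.5, 1.47 and 1.28 in controls and 1.65, 1.51 and 1.61 in bitransgenic lungs. It was higher on each bitransgenic array than on each control array, though bitransgenic 2 was nearly level with control 1. The same ratio of Gapdh was 0.921, 0.921 and 0.781 against 0.996, 0.921 and 1.08, with bitransgenic 2 level with controls 1 and 2. The part of the Actb ratio in the results below was not tested beyond a fit that holds it as a covariate.

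At E18.5 most lipid synthesis genes had lower signals in bitransgenic lung, by modest amounts, and no member passed the adjusted threshold. Log2 changes, bitransgenic minus control on the scale of log2(signal + pseudocount), ran from -0.88 for Insig1 to 0.21 for Sc5d, with a median of -0.27 over the 36 members against 0.01 over all genes tested. With limma's moderated test and Benjamini-Hochberg adjustment over all genes, 0 of 36 members had an adjusted p under 0.05, where 0.673% of all genes did (0.436% lower and 0.238% higher). The smallest adjusted p of a member was 0.0933. At an unadjusted p under 0.05, 14 of 36 members (38.9%) were lower and 0 were higher, where 5.13% of all genes were lower and 4.53% were higher.

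The raw signals gave a similar count. In 14 of 36 members (38.9%) all 3 bitransgenic values lay below all 3 control values, and in 0 members did they lie above, where 7.54% of all genes lay apart lower and 8.84% apart higher. These 14 members had mean signals at 53.0% to 85.8% of control, and 12 of them were also among the 14 at an unadjusted p under 0.05. Negative changes were seen in 28 members (77.8%), against 47.4% of all genes. Of the 36 members, 9 lay within 0.1 of 0 on the log2 scale. An exact permutation test of 3 arrays against 3 has 10 splits and cannot give a two-sided p under 0.1 for any single gene. In whole lung, fewer cells of a type and less RNA per cell cannot be told apart.

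**Figure D1:**
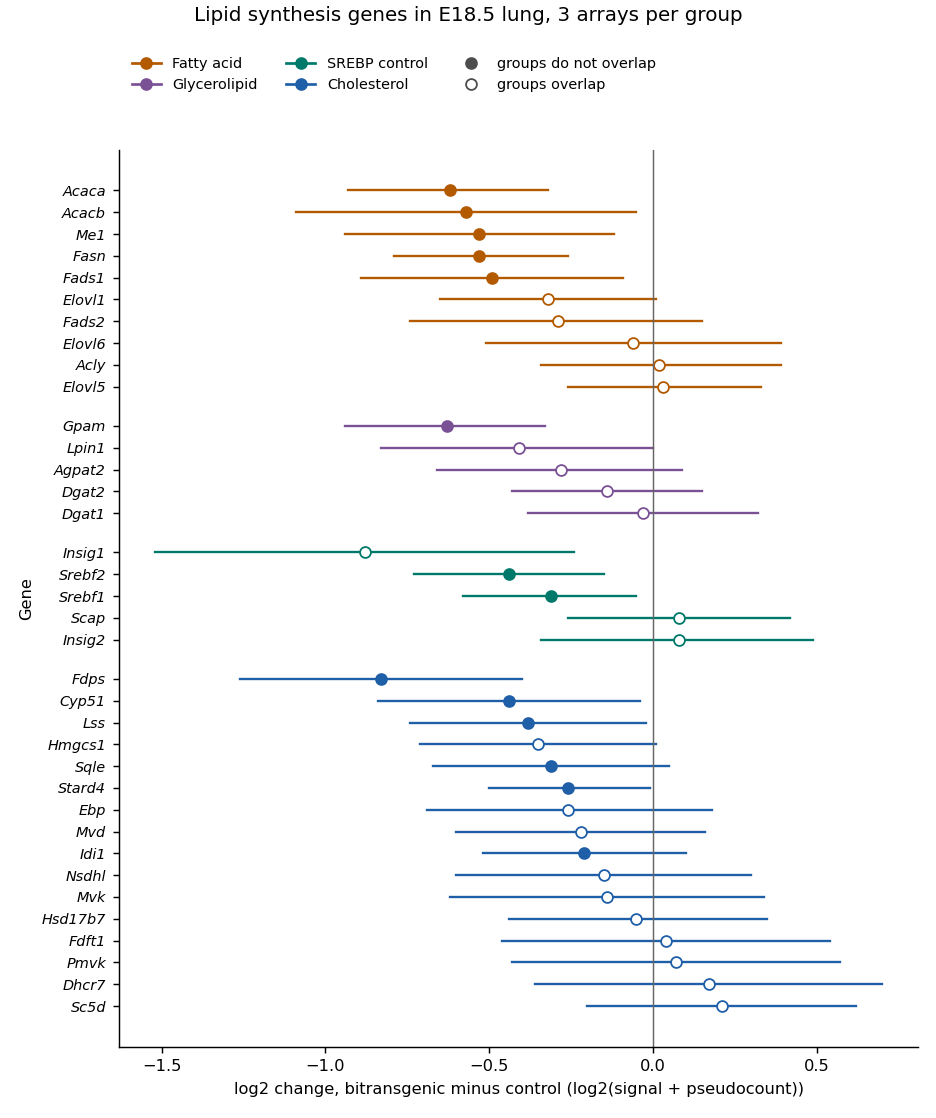
Log2 change of signal (x axis, bitransgenic minus control, log2(signal + pseudocount)) of the 36 measured lipid synthesis genes at E18.5, coloured by role, with 3 arrays per group. Points are limma estimates, bars are 95% confidence intervals, and filled points mark the 14 genes whose bitransgenic signals all lay below the control signals. Values run from -0.88 to 0.21, and no filled point lies above 0.

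Acaca and Fasn, genes of acetyl-CoA carboxylase and fatty acid synthase, were among the members with the clearest separation. Acly, the step before them, was not among these. Of the 10 fatty acid genes, 5 lay apart lower and 0 apart higher, where 7.54% and 8.84% of all genes did. The adjusted test was passed by 0 of them, where 0.673% of all genes passed, and their median was -0.40. Acaca, which encodes the cytosolic acetyl-CoA carboxylase that commits carbon to fatty acid synthesis (chromosome 11, 84129635 to 84401651, GRCm38), read 2753, 2654 and 2879 in controls and 1645, 1967 and 1686 in bitransgenic lungs. The groups were well apart, at 2762 ± 113 against 1766 ± 175 (SD, n = 3 each). Its log2 change was -0.62 (SE 0.13, 95% interval -0.93 to -0.32, limma adjusted p = 0.0933). A weaker probe set of the gene had -0.43, with overlapping groups.

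Fasn, the fatty acid synthase gene (chromosome 11, 120805958 to 120825166), read 19950, 20021 and 23598 in controls and 13856, 15452 and 14678 in bitransgenic lungs. All bitransgenic values were below the lowest control, with a log2 change of -0.53 (SE 0.12, limma adjusted p = 0.104). Me1, the malic enzyme that supplies NADPH to the synthase, read 1732, 1671 and 1836 against 1078, 979 and 1565. The groups did not overlap, although bitransgenic 3 came close to the controls, and the log2 change was -0.53 (SE 0.18, limma adjusted p = 0.373). Acacb, the carboxylase isoform at mitochondria whose malonyl-CoA restrains fatty acid oxidation, was dim, at 469, 509 and 460 against 210, 291 and 406. Its log2 change was -0.57 (SE 0.23, limma adjusted p = 0.470), again with bitransgenic 3 nearest to the controls.

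Acly, which makes the acetyl-CoA that both routes use, read 15395, 15596 and 14062 in controls and 12988, 13914 and 19656 in bitransgenic lungs, so the groups overlapped through bitransgenic 3. Its log2 change was 0.02 (95% interval -0.34 to 0.39), and it was -0.20 when control 3 and bitransgenic 3 were left out.

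Among the genes that lengthen and desaturate fatty acids, Fads1, the delta-5 desaturase of polyunsaturated fatty acid synthesis, read 3351, 3456 and 4974 in controls and 2525, 2605 and 3081 in bitransgenic lungs. The groups did not overlap, and control 3 stood above the other controls. The log2 change was -0.49 (SE 0.18, limma adjusted p = 0.391), while a dim second probe set of the gene had 0.13. Fads2, the delta-6 desaturase, had a log2 change of -0.29 with overlapping groups, and a dimmer probe set of the gene had -0.50 with groups apart. Elovl1, which elongates saturated very long chains, had -0.32, and another of its probe sets had -0.73 with groups apart. Elovl5 and Elovl6, elongases of polyunsaturated chains and of palmitate, had 0.03 and -0.06, with intervals of -0.26 to 0.33 and -0.51 to 0.39.

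In glycerolipid assembly the largest difference was in the acyltransferase that starts it. Gpam, which encodes the mitochondrial glycerol-3-phosphate acyltransferase (chromosome 19, 55067635 to 55127319), read 31080, 26503 and 23591 in controls and 18592, 18169 and 15295 in bitransgenic lungs. It was a bright probe set, and every control exceeded every bitransgenic value. The means were 27058 ± 3776 and 17352 ± 1794 (SD, n = 3 each), a log2 change of -0.63 (SE 0.14, limma adjusted p = 0.0933). Without control 3 Gpam passed, with a limma adjusted p of 0.0375. Over the 6 fits with 1 array left out its limma adjusted p ran from 0.0375 to 0.351. A dimmer probe set of the gene had a log2 change of -0.44, with overlapping groups.

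All 5 glycerolipid genes had negative changes, with a median of -0.28, but Gpam was the single one whose groups lay apart. Lpin1, a phosphatidate phosphatase, had a log2 change of -0.41 and an unadjusted limma p of 0.0489, with overlapping groups. A dimmer probe set of Lpin1 had -0.47, with groups apart. Agpat2, which adds the next acyl chain, had -0.28, with control 1 level with the bitransgenic arrays. The diacylglycerol acyltransferases Dgat1 and Dgat2, which finish triglycerides, had -0.03 and -0.14, and the interval of Dgat1 ran from -0.38 to 0.32.

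Among the SREBP control genes, both transcription factor genes lay apart lower, the escort gene did not, and the INSIG genes differed from each other in their values. Srebf2, which encodes SREBP2 (chromosome 15, 82147269 to 82205379), read 2974, 2659 and 2755 in controls and 1956, 2180 and 1992 in bitransgenic lungs. Values within each group were close, and the groups were clearly apart. The log2 change was -0.44 (SE 0.13, limma adjusted p = 0.265). At the second probe set of Srebf2 it was -0.23, and there the groups overlapped.

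Srebf1, which encodes SREBP1 (chromosome 11, 60199084 to 60224186), read 9911, 9471 and 8621 in controls and 7285, 7489 and 7685 in bitransgenic lungs. The separation was small but complete, with bitransgenic signal at 80.2% of control and a log2 change of -0.31 (SE 0.12, limma adjusted p = 0.413). Scap, the escort, read 2095, 2628 and 2923 against 2605, 2601 and 2807, with a log2 change of 0.08 (95% interval -0.26 to 0.42).

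Insig1, itself a classic SREBP target that retains SCAP in the endoplasmic reticulum (chromosome 5, 28071412 to 28078662), had the most negative change of the members. It read 6285, 6407 and 3127 in controls and 3119, 3130 and 1965 in bitransgenic lungs. Control 3 was level with the upper bitransgenic arrays, so the groups overlapped. The log2 change was -0.88 (SE 0.28, limma adjusted p = 0.324). Without control 3 it was -1.22 (limma adjusted p = 0.0355), and over the 6 fits with 1 array left out the adjusted p ran from 0.0355 to 0.747. Insig2, the isoform less dependent on SREBP, read 5391, 4973 and 3418 against 4907, 5290 and 4169, a log2 change of 0.08 (95% interval -0.34 to 0.49) that was -0.22 when the Actb ratio was a covariate. The difference between the changes of Insig1 and Insig2 was not tested.

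**Figure D2:**
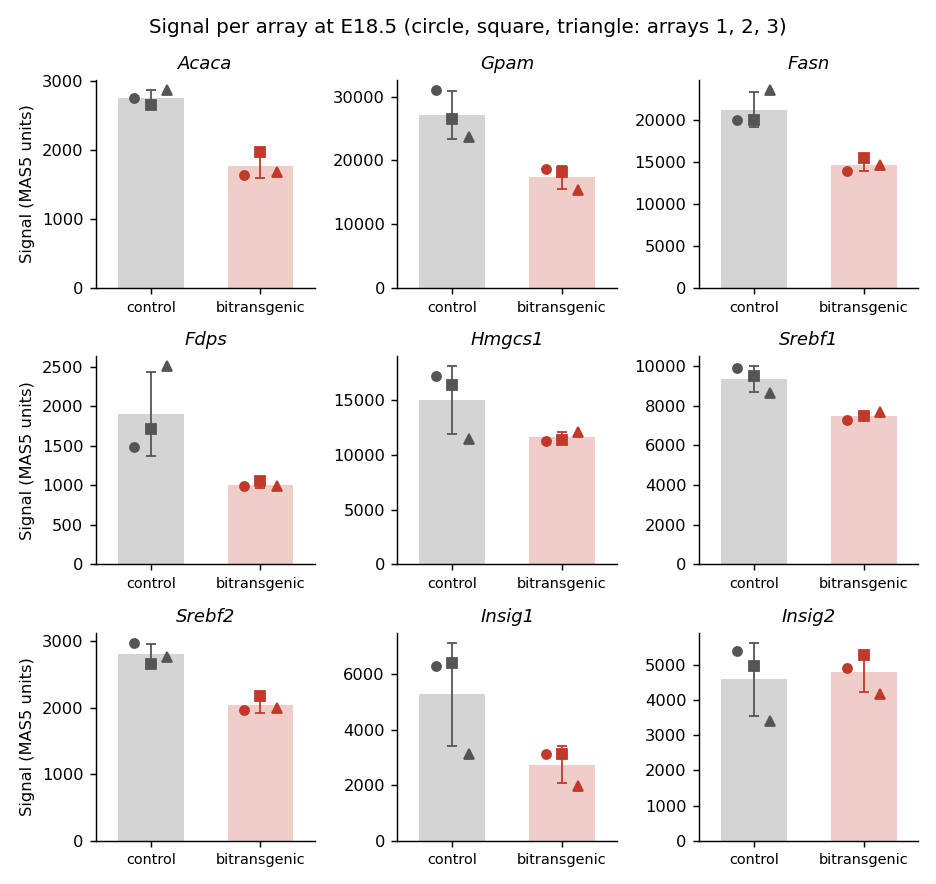
Signal in MAS5 units (y axis, from 0) of 9 lipid synthesis genes in control and bitransgenic E18.5 lung. Bars are means, error bars SD over 3 arrays, and circles, squares and triangles arrays 1, 2 and 3 of each group. Acaca, Gpam, Fasn, Fdps, Srebf1 and Srebf2 show no overlap between groups, while in Hmgcs1 and Insig1 the control triangle, at 11490 and 3127, lies among the bitransgenic values.

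Of the 16 measured genes of cholesterol synthesis and transport, 6 lay apart lower and 0 apart higher, where 7.54% and 8.84% of all genes did. The adjusted test was passed by 0 of them, where 0.673% of all genes passed, and their median was -0.22. Fdps, which makes farnesyl diphosphate, the branch point to sterols and prenyl groups (chromosome 3, 89093588 to 89101967), read 1488, 1720 and 2511 in controls and 987, 1054 and 990 in bitransgenic lungs. The bitransgenic values were tight, and control 3 was the highest array. The means were 1906 ± 537 and 1010 ± 38.1 (SD, n = 3 each), with a log2 change of -0.83 (SE 0.19, limma adjusted p = 0.120).

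Cyp51, the lanosterol demethylase, read 1125, 1139 and 882 in controls and 732, 875 and 644 in bitransgenic lungs. Control 3 exceeded bitransgenic 2 by little, and the log2 change was -0.44 (SE 0.18, limma adjusted p = 0.460). A dimmer probe set of Cyp51 had -0.14, with overlapping groups. Stard4, a carrier that moves cholesterol between membranes, read 13728, 12674 and 13122 against 11427, 10737 and 10857. The groups were apart by a small margin, with a log2 change of -0.26 (SE 0.11, limma adjusted p = 0.487). Other probe sets of Stard4 had -0.50 with groups apart and -0.25 with overlapping groups. The remaining genes with groups apart were Lss, Sqle and Idi1, which make lanosterol, squalene epoxide and dimethylallyl diphosphate, with log2 changes of -0.38, -0.31 and -0.21. Dimmer probe sets of Lss and Idi1 had -0.25 and -0.13, with overlapping groups.

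Hmgcs1, the cytosolic synthase that opens the mevalonate route, read 17175, 16418 and 11490 in controls and 11258, 11393 and 12127 in bitransgenic lungs. Control 3 lay among the bitransgenic arrays, and the log2 change was -0.35 (SE 0.16, limma adjusted p = 0.540). All 5 probe sets of the gene were lower, from -0.33 to -0.50, and in 3 of them the groups did not overlap. The other cholesterol genes were centred nearer to 0. Mvd, Ebp, Nsdhl, Mvk and Hsd17b7 had log2 changes between -0.26 and -0.05, and Fdft1, Pmvk, Dhcr7 and Sc5d between 0.04 and 0.21. Sc5d, a late step of the route, was at 115% of control (95% interval of the log2 change -0.20 to 0.62) and at -0.16 when the Actb ratio was a covariate. The late-step gene Dhcr7 was also at 115% of control, with an interval of -0.36 to 0.70.

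Other probe sets of the same genes mostly leaned the same way. The 36 members had 83 probe sets, and 70 of these were bright enough to pass the filter. Of the 70, 55 were lower in bitransgenic lung, 22 lay apart lower and 0 apart higher. These counts include the 36 probe sets used above, of which 28 were lower and 14 lay apart lower. The same counts over all probe sets of the array were not made. Counting only probe sets past the filter, 24 members had several, of which 15 had all of them lower, 0 had all of them higher and 9 were mixed. The mixed genes were Acly, Elovl5, Elovl6, Fads1, Fdft1, Hsd17b7, Insig2, Mvk and Sc5d, most of which had changes close to 0 at the probe set used. For Elovl1, Elovl5, Fdft1 and Hsd17b7 that probe set is of a kind that can also bind other transcripts (suffix x_at), so their values are less certain.

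SREBPs bind sterol regulatory elements, often beside an NF-Y site at a CCAAT box, and Sp1 sites at GGGCGG are common next to them. RefSeq promoters of GRCm38.p6, running from 250 bases before to 50 bases after a start site, were matched by symbol for 29 of 36 members. The sterol regulatory element core TCACNCCAC was searched on both strands. It was found in 1 of these members, Hmgcs1 (3.45%, against 1.44% of 27025 genes with such a promoter). These members had 40 promoters, of which 1 held the core, where 1.24% of 32851 promoters did. CCAAT, also on both strands, was in 23 members (79.3%, against 41.1% of genes and 37.4% of promoters) and GGGCGG in 22 (75.9%, against 38.2% of genes and 35.7% of promoters). Of the 10 members that lay apart lower and had a promoter, 9 held CCAAT and 7 held GGGCGG. A match of letters is a description of the sequence, and no binding was measured.

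The 250 bases before a start site are given for 4 members, 5′ to 3′ on the gene's strand. Hmgcs1 is shown as the single member with the sterol element core, which begins 137 bases before the start. Gpam, Fasn and Srebf2 are shown as the members of smallest p with a CCAAT match, a choice made after their values were seen. Capitals mark TCACNCCAC and CCAAT on either strand (ATTGG is CCAAT on the other strand). In Fasn a CCAAT and an ATTGG overlap.
Hmgcs1: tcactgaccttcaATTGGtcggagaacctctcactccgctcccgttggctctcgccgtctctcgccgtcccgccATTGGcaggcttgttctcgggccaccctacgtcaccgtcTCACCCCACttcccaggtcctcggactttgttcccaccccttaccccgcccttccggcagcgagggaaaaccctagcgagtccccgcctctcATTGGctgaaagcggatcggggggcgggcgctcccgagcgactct
Gpam: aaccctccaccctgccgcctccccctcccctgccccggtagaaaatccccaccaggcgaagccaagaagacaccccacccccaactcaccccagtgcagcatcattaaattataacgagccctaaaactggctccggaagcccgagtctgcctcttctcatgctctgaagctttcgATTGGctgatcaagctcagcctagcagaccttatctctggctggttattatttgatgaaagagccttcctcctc
Fasn: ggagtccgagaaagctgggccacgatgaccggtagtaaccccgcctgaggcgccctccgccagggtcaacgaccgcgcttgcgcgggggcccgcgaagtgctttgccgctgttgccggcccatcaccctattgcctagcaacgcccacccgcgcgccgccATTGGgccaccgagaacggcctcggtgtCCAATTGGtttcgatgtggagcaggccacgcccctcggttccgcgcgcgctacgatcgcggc
Srebf2: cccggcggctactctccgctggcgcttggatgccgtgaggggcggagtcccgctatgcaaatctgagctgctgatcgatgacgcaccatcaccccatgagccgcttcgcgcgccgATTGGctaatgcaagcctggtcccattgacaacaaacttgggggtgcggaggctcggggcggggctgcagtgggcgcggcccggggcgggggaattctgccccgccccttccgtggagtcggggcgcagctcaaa
Hmgcs1 (chr13:119690101-119690350, plus strand) held 3 CCAAT boxes, and Fasn (chr11:120824548-120824797, minus strand) also held 3. Gpam (chr19:55127239-55127488, minus strand) and Srebf2 (chr15:82147019-82147268, plus strand) held 1 each, and Srebf2 held 4 GGGCGG boxes.

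The members' pattern was visible on every array. The median deviation of the 36 members from each gene's mean over the 6 arrays was 0.12, 0.12 and 0.13 on the log2 scale in controls and -0.21, -0.14 and -0.12 in bitransgenic lungs, whereas that of all genes stayed between -0.02 and 0.04. Bitransgenic 1 held the lowest value of the 6 arrays in 13 members and the highest in 0. Bitransgenic 3 differed by role. Its fatty acid genes had a median deviation of 0.10, and its cholesterol genes of -0.13.

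**Figure D3:**
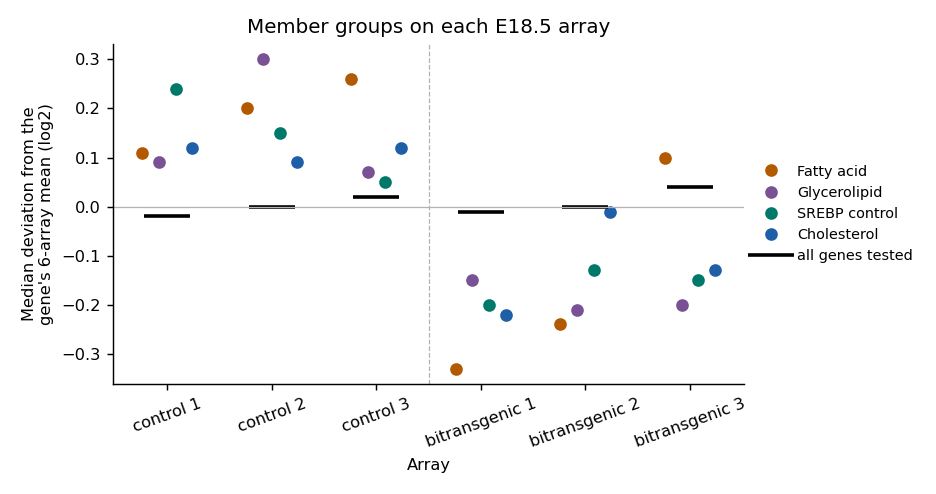
Median deviation of each role group from the genes' 6-array means (y axis, log2) on each E18.5 array (x axis). Coloured points are role groups, black dashes all genes tested, and the dashed line separates control from bitransgenic arrays. All control points lie above 0, and all bitransgenic points lie below 0 except the fatty acid genes on bitransgenic 3, at 0.10.

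How many members passed depended on which arrays were used and how they were weighted. When control 3 and bitransgenic 3, the arrays of lowest correlation, were left out, Gpam (limma adjusted p = 0.0186), Insig1 (limma adjusted p = 0.00267) and Hmgcs1 (limma adjusted p = 0.0158) passed, all lower, where 0.887% of all genes passed lower. In those 4 arrays 24 of 36 members lay apart lower, against 21.1% of all genes. With 1 array left out, 15, 14 and 20 members lay apart lower without control 1, 2 and 3, against 14.3%, 9.76% and 13.3% of all genes. Without bitransgenic 1, 2 and 3 the counts were 16, 17 and 18, against 9.65%, 10.8% and 14.1%. Non-overlap was thus more common among all genes whenever fewer arrays were used. With array weights 15 members passed, all lower, where 5.78% of all genes did. Without control 3 alone, Gpam and Insig1 passed, where 0.404% of all genes passed lower. With the Actb ratio as a covariate 0 members passed, where 0.127% of all genes passed lower, and 8 had an unadjusted limma p under 0.05, all lower, where 3.14% of all genes were. In that fit the members' median was -0.22, and Fads1 and Fdps moved to -0.18 and -0.41, while Insig1 and Hmgcs1 moved to -1.41 and -0.69.

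**Figure D4:**
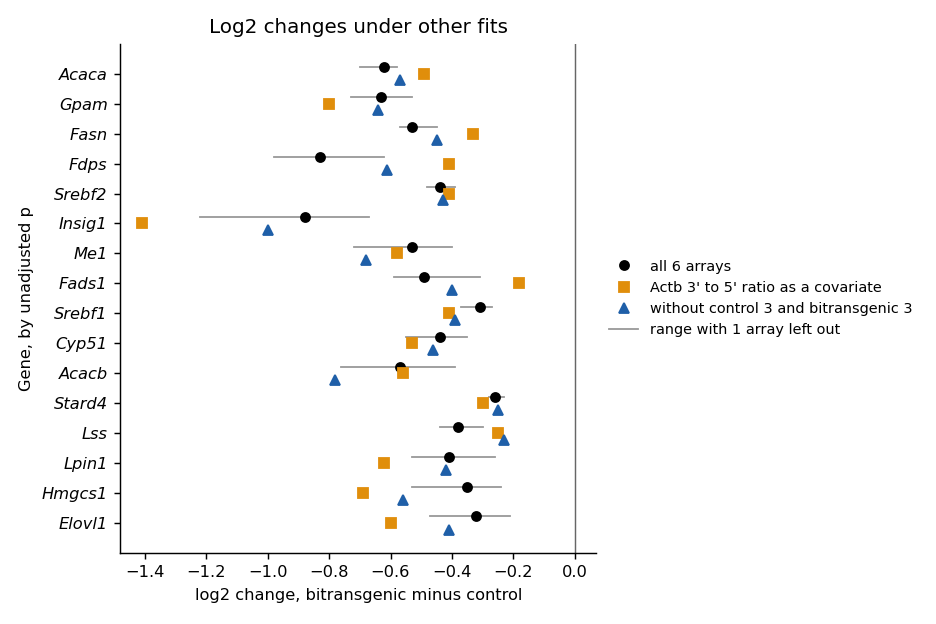
Log2 change (x axis, bitransgenic minus control) of the 16 members of smallest unadjusted p in the fit of all 6 arrays, in the fit with the Actb ratio as a covariate and in the fit without control 3 and bitransgenic 3. Grey lines span the fits with 1 array left out. Every point lies below 0, and Insig1 ranges most widely, from -1.41 to -0.67.

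Lists of other genes of the same and neighbouring routes, written with earlier results of these data known, had medians near 0. Among 24 tested genes of other fatty acid and glycerolipid steps 1 passed, Scd1, the stearoyl-CoA desaturase that makes oleate. Scd1 read 41930, 36466 and 36858 in controls and 977, 923 and 1741 in bitransgenic lungs, and fell by 4.94 on the log2 scale (limma adjusted p = 5.99e-06), far beyond the change of any member. The list's median was -0.08, with 5 genes (20.8%) apart lower, where 7.54% of all genes were, and 3 apart higher, where 8.84% were. Among them, and chosen after their values were seen, Scd2, another stearoyl-CoA desaturase, lay apart lower at -0.50 (limma adjusted p = 0.0933), and passed at -0.81 when its probe sets were averaged (limma adjusted p = 0.00953). Mid1ip1, which promotes acetyl-CoA carboxylase assembly, also lay apart lower, at -0.53 (limma adjusted p = 0.113). In phosphatidylcholine synthesis, 1 of 15 tested genes passed, where 0.673% of all genes did. Lpcat1, which remodels surfactant phosphatidylcholine, fell by 1.19 (limma adjusted p = 0.00104), and the median was -0.03.

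None of the 8 tested genes of other cholesterol synthesis and uptake passed with limma, where 0.673% of all genes did, and the median was -0.02. An unadjusted limma p under 0.05 was found in 0 of them, where 5.13% of all genes were lower and 4.53% higher. Msmo1, a sterol demethylation gene, had a log2 change of -0.35, and the lysosomal cholesterol exporters Npc1 and Npc2 had -0.41 and 0.22. Among 11 tested SREBP and liver X receptor regulators 0 passed with limma, and the median was 0.00. At an unadjusted limma p under 0.05, where 5.13% of all genes were lower and 4.53% higher, 1 regulator was lower and 1 higher. These were Cebpa, a transcription factor of lipogenic and type II cells, at -0.87 (limma adjusted p = 0.146) and Mlxipl, which encodes the carbohydrate response factor ChREBP and was dim, at 0.82 (limma adjusted p = 0.304). Hdac3, a corepressor, had 0.28. In fatty acid oxidation 0 of 19 tested genes passed with limma, where 0.673% of all genes did, and the median was 0.01. An unadjusted limma p under 0.05 was found in 0 of these 19, against the same 5.13% and 4.53% of all genes. The mitochondrial genes Hadh, Cpt2 and Cpt1a had 0.27, -0.26 and -0.22, and Hadh had -0.18 when all its probe sets were averaged.

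Markers of lung cell types moved with the groups as well. Of 14 tested type II markers 11 (78.6%) lay apart lower, where 7.54% of all genes did. Sftpa1, Abca3, Slc34a2, Lpcat1 and Lyz2 passed with limma, all lower, where 0.436% of all genes did. The median over the list was -0.92. Lpcat1 is also on the phosphatidylcholine list, Cebpa on the regulator list and Lyz2 on the macrophage list. When the Actb ratio was a covariate, the type II median was -0.55, and Abca3, Slc34a2 and Lyz2 no longer passed, at log2 changes of -1.01, -1.45 and -1.11 beside -0.97, -1.68 and -1.28 without it. The same 3 genes missed the threshold without control 2 (limma adjusted p = 0.0742, 0.0884 and 0.0627), with log2 changes of -0.94, -1.69 and -1.30. So did Abca3 without bitransgenic 1 (limma adjusted p = 0.0514) and Lyz2 without bitransgenic 3 (limma adjusted p = 0.0518). The summed type II signal ran from 403132 to 475130 in controls and from 217043 to 268954 in bitransgenic lungs. Sftpc, on the same list, read 84710 ± 3667 and 85319 ± 11417 (SD, n = 3 each). The part of type II markers in the lipid gene values was not tested.

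Endothelial markers also had lower signals. All 10 had negative changes, against 47.4% of all genes, and 8 lay apart lower, against 7.54%. With limma 0 passed, where 0.436% of all genes passed lower. At an unadjusted limma p under 0.05, 8 were lower, where 5.13% of all genes were. The median was -0.58 (-0.18 with the Actb ratio as a covariate). Their summed signal was 86891 to 125860 in controls and 64870 to 72270 in bitransgenic lungs, and their part in the lipid gene values was not tested. Pan-epithelial markers leaned the other way, with 4 of 12 apart higher and 1 apart lower, where 8.84% and 7.54% of all genes were. Their median was 0.29 (0.17 when the Actb ratio was a covariate), and their summed signal was 94223 to 103993 against 107878 to 117886. Foxa1, an epithelial transcription factor gene, was at 0.85 (limma adjusted p = 0.0674).

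Cells known for storing or exporting lipid were checked too. The lipofibroblast list had a median of 0.03 over 8 genes, with summed signals of 90933 to 93813 and 85462 to 87114. The fat cell hormones Adipoq and Lep stayed at or under 160 and 47.1 on every array. Others of the adipocyte list were brighter on some arrays. Retn reached 470 in controls and 407 in bitransgenic lungs, and Car3 reached 141 and 354. Of that list Fabp4 alone was bright enough to test, at 0.51 (limma adjusted p = 0.209). Of 9 named hepatocyte markers 2 were bright enough to test, and albumin (Alb) read 317 to 1506 in controls and 205 to 473 in bitransgenic lungs. The erythroid genes tested, of which there were 2, had a median of -0.76. Macrophage, mesenchyme and cycling lists had medians of -0.08, -0.12 and -0.08.

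At E11.5 the members, like most genes on these arrays, differed little between lung and trachea. There was 1 array per tissue, and therefore no replicate check and no test. Within 1.5-fold lay 92.0% of the members bright enough to compare and 85.6% of all genes. Of the 25 members bright enough to compare, 0 exceeded 2-fold with the higher signal above the array's median, where 3.12% of all genes did (1.07% towards lung and 2.05% towards trachea). At 1.5-fold there was 1, Elovl1, where 12.9% of all genes did. Lung signal was the higher in 17 of 25 (68.0%), against 49.8% of all genes, and the median log2 ratio of lung over trachea was 0.16, against 0.00.

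The largest ratios towards lung were in genes of both routes. Elovl1 read 723 in lung and 440 in trachea, a log2 ratio of 0.62. Fasn read 4644 and 3526, a log2 ratio of 0.39, and Acly read 11974 and 9368, a log2 ratio of 0.35. These are the synthase and the enzyme that feeds it. Of the cholesterol genes, Idi1 read 4932 and 3839, and Fdps read 10957 and 8550, both with a log2 ratio of 0.35. All 14 cholesterol genes lay within 1.5-fold, where 85.6% of all genes did. Of these 14, 9 had more signal in lung, and the median log2 ratio was 0.22.

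Towards trachea, Lpin1 had the largest ratio, at 234 in lung and 436 in trachea (log2 ratio -0.71), but both signals were below the array's median. Of the SREBP control genes, Srebf1 was nearly level, at 3272 and 3067, and Insig1, at 29.5 and 81.4, was below the brightness limit. Gpam, Cyp51 and Hmgcs1 were also nearly level, with log2 ratios of 0.01, 0.01 and -0.04. Other probe sets of Mvk, Elovl6 and Fdps gave ratios unlike those used, 1.25 beside 0.34 for Mvk and -0.48 beside 0.16 for Elovl6. For Fdps a dim probe set, at 3.38 in lung and 85.0 in trachea, had -0.95 beside 0.35.

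The tissue samples also differed in their cell type and growth markers. All 7 pan-epithelial markers compared had more signal in lung, with a median of 0.56 and summed signals of 16506 in lung and 11341 in trachea. Of 8 mesenchymal markers 7 had more in trachea, with summed signals of 41195 and 55240, and 8 of 9 cycling genes had more in lung, with a median of 0.29. Their part in the members' ratios was not tested.

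**Figure D5:**
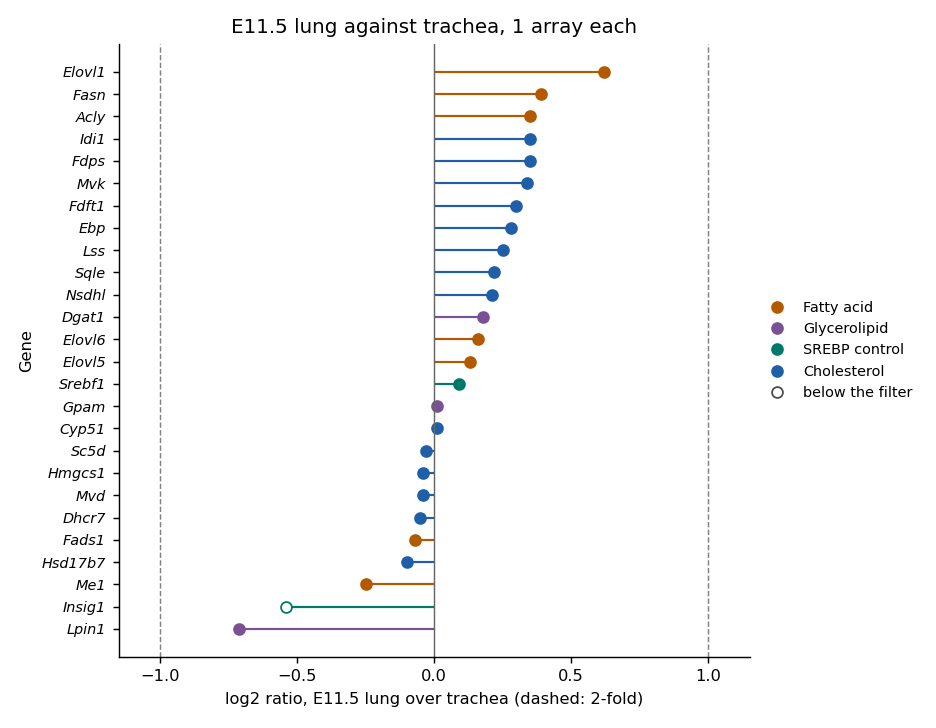
Log2 ratio of lung over trachea signal (x axis) at E11.5 for the 26 members on the older array, ordered by ratio and coloured by role, with 1 array per tissue and no error estimate. Dashed lines mark 2-fold, and the open point is below the brightness limit. Ratios run from -0.71 for Lpin1 to 0.62 for Elovl1.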

How the data were processed

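The deposited tables hold 1 signal per probe set and array in intensity units on a linear scale, made with MAS5 per the submitters' processing notes. Each array has a 2% trimmed mean of 1500. Control probe sets were left out (64 at E18.5, 66 at E11.5), as were detection calls, which were not used here. Of 45037 E18.5 probe sets 34945 had 1 gene symbol, 932 several and 9160 none. Of 12422 at E11.5, 10833 had 1.

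Signals were analysed as log2(signal + pseudocount), with the pseudocount at the 20th percentile (86.4 at E18.5, 84.3 at E11.5), which compresses changes of dim genes. Each gene took its probe set of highest mean signal and was kept when its mean log2 value reached the 40th percentile of all probe sets (a signal of about 251 at E18.5 and 305 at E11.5). The E18.5 comparison used limma 3.58.1 under R 4.3.3 (lmFit, eBayes with an intensity trend), two-sided, with Benjamini-Hochberg adjustment over 12623 genes and a threshold of 0.05. No test was made at E11.5. The fit was tested on simulated data, in 10 runs with 200 changed genes each. It recovered 10.7% of 1.5-fold, 53.3% of 2-fold and 91.4% of 4-fold changes, and 5.15% of its calls were false. Changes of 1.5-fold were thus mostly missed, so a gene that did not pass may still differ. Replicate numbers follow deposition order. Precision is limited by the number of arrays.

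The members and lists were chosen with earlier results of these data known. Every sample's values are given for the 12 members of smallest p and the 5 SREBP control genes, and at E11.5 for the 6 largest ratios. Of other lists, genes past the threshold were named, or up to 3 of smallest p. Hmgcs1, marker levels and array checks were named for the results that turn on them. Alternatives covered scaling, pseudocount, filter, probe set choice, variance model, covariates and left-out arrays.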

Additional observations from a re-analysis of the deposited data

How the results depend on the processing

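The count of 85 genes past the adjusted limma threshold was 1337 with array weights (whose iteration did not reach its convergence tolerance), 20 with the Actb ratio as a covariate, 183 without control 3 and bitransgenic 3, and 22 to 97 with 1 array left out, lowest without control 2. The count of 0 members was 15, 0, 3 and 0 to 2 in the same order (2 without control 3), and 14 at an unadjusted p under 0.05, an alternative chosen after seeing the data. The 14 members apart lower were 24 without both arrays (21.1% of all genes) and 14 to 20 with 1 left out. The share of all genes apart lower was then 9.65% to 14.3%, against 7.54% with all arrays. Their median of -0.27 was -0.22 with the Actb ratio, -0.22 without both arrays, and -0.29 to -0.21 with 1 left out. At E11.5 a 1.5-fold threshold gave 1 member, and TCANNCCAC in place of TCACNCCAC gave 4 promoters in place of 1. The looser core is also commoner in general. It was in 4 of 29 members with a promoter (13.8%), where 4.78% of genes held it. Counted by promoter it was in 4 of 40, where 4.18% of all promoters held it. Of 683 values of single members under alternatives, 625 kept sign and call, 20 passed the threshold newly, 0 lost it and 38 changed sign, all of these in 14 members whose groups overlapped, while 22 members changed sign nowhere. With array weights Acly, Elovl5 and Fdft1 were at -0.15, -0.07 and -0.06. With the Actb ratio Acly was at -0.09, Elovl5 at -0.08, Elovl6 at 0.04, Insig2 at -0.22, Mvk at 0.29, Fdft1 at -0.38, Nsdhl at 0.16, Ebp at 0.08 and Sc5d at -0.16. With the mean of probe sets Elovl6, Fdft1 and Hsd17b7 were at 0.04, -0.02 and 0.16, and Hadh at -0.18. Without both arrays Acly, Elovl5, Insig2, Fdft1 and Sc5d were at -0.20, -0.10, -0.02, -0.08 and -0.01. With 1 array left out the ranges were -0.16 to 0.14 (Acly), -0.08 to 0.12 (Elovl5), -0.22 to 0.09 (Elovl6), -0.15 to 0.08 (Dgat1), -0.05 to 0.18 (Scap), -0.12 to 0.20 (Insig2), -0.32 to 0.05 (Mvk), -0.18 to 0.26 (Pmvk), -0.22 to 0.19 (Fdft1), -0.31 to 0.01 (Nsdhl), -0.17 to 0.09 (Hsd17b7) and -0.04 to 0.36 (Dhcr7). The cause of these differences was not tested. No paired analysis was possible because the replicate numbers only follow deposition order and no label links an array of 1 group to an array of the other.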

Other observations

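Control 3 was the highest control in 15 members, among them Fdps, Fads1, Fasn, Sqle and Ebp, and the lowest control in 17, among them Insig1, Hmgcs1, Gpam, Cyp51 and Fdft1. It was thus at one end of the controls in 32 of 36 members, and it was so in 83.9% of all genes tested. Control 1 was at one end in 27 members and 68.9% of all genes, and control 2 in 13 members and 47.2%.

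At E11.5, genes of phosphatidylcholine synthesis leaned towards trachea, with 9 of 10 higher there and a median log2 ratio of lung over trachea of -0.16, and fatty acid oxidation did as well, with 11 of 15 and a median of -0.18. All 10 phosphatidylcholine genes lay within 1.5-fold, where 85.6% of all genes did. These ratios come from 1 array per tissue and have no test.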
